A study of Mus musculus with 6 samples.

Results

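A group of 10 genes of epithelial identity was followed: the transcription factors Grhl2 and Grhl3, the adhesion molecules Cdh1 and Epcam, the claudins Cldn3, Cldn4, Cldn6 and Cldn7, the splicing regulator Esrp1 and the actin regulator Baiap2l1. They were found by their names in the deposited array table, where 9 of the 10 genes had 11 probes among 28902 gene names, Epcam under its older name Tacstd1. No probe carried the name Esrp1. The genes were proposed with earlier results of these arrays in view, among them the differences of Grhl2 and Baiap2l1 between lines, so their own differences are given as a description and without a test.

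Gene expression had been measured in mouse pluripotent stem cells of 3 lines with 2 Illumina bead arrays each. ES cells, derived from the early embryo, were the reference. The second line, O2ACH iPS, consisted of induced pluripotent stem cells labelled PB-Oct4.2A.cherry iPS-/-, and the third, CL25, of cells labelled PB-Oct4.2A.cherry (low) with the clone number cl2.5, again iPS-/-. Both iPS lines thus carry an Oct4 and cherry construct and a minus/minus mark, whose gene the labels do not name, and the labels do not say what was low in CL25. All 3 lines had the background strain B6 and grew in serum replacement medium with LIF, 3 µM CHIR99021 and 1 µM PD0325901, the inhibitors that hold mouse cells in the naive state. Each kind of cell was a single line, and CL25 was 1 clone by its label. Both samples of each line are described as biological replicates by the submitters. P-values below measure the spread between such samples and not between independent lines.

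Between 35.9% and 37.5% of 45281 probes were detected on an array, and replicate arrays correlated across 12631 genes at r = 0.981 to 0.989 and arrays of different lines at 0.956 to 0.981, which is a description, as genes are not independent replicates. All 8 pluripotency markers examined, Nanog, Sox2, Esrrb, Zfp42, Klf4, Tfcp2l1, Dppa5a and Utf1, were detected on all 6 arrays, with a summed normalised intensity of 53959 to 63166 in ES cells, 57922 to 59989 in O2ACH iPS and 56369 to 60304 in CL25. Pou5f1, which encodes Oct4, had mean normalised log2 intensities of 12.20 in ES cells, 10.995 in O2ACH iPS and 8.92 in CL25. The small number of arrays limits the precision of every value.

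Naive pluripotent cells grow as compact colonies with an epithelial character, held together by E-cadherin, the product of Cdh1. Tight junctions, built from claudins and occludin, seal neighbouring epithelial cells, and grainyhead-like factors such as Grhl2 are known to keep adhesion and junction genes active in mouse epithelia. Snail and Zeb proteins act in the other direction in epithelial to mesenchymal transition, repressing Cdh1 and claudin genes through the E-box CACCTG.

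RefSeq promoter windows of GRCm38.p6, from 250 bases before to 50 bases after a gene start, were at hand for 7 of the 10 genes, 8 windows in all. No window was at hand for Grhl2, Cdh1 or Esrp1, so these genes were not searched. The windows are shown for 5 genes with values below, and not for Epcam, which no array detected, or for Cldn7, the most even of the claudins. The E-box CACCTG, searched on both strands and so also read as CAGGTG, is in capitals, and each sequence runs 5′ to 3′ on the strand of its gene.
Grhl3, chr4:135573583-135573882, minus strand: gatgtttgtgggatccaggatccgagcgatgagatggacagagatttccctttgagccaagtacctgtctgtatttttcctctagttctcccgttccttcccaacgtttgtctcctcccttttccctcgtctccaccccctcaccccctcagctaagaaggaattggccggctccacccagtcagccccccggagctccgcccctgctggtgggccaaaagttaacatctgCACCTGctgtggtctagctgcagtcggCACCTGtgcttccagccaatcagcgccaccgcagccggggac
Cldn3, chr5:134985964-134986263, plus strand: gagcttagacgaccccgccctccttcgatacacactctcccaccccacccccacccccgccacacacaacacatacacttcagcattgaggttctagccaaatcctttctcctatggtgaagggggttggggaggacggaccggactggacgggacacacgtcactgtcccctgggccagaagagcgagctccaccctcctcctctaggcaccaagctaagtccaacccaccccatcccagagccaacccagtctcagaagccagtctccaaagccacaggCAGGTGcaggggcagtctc
Cldn4, chr5:134946885-134947184, minus strand: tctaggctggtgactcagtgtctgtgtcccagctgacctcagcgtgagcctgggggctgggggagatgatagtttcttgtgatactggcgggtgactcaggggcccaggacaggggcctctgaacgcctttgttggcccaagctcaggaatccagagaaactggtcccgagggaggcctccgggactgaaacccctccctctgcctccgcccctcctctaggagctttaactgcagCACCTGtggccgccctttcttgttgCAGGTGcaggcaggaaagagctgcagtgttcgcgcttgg
Cldn6, chr17:23679115-23679414, plus strand: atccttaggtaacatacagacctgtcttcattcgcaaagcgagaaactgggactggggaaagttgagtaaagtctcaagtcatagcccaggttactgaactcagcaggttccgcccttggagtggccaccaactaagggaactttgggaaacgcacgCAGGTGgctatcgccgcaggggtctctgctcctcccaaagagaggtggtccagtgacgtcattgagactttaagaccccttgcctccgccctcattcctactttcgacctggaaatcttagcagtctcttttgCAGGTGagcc
Baiap2l1, chr5:144358063-144358362, minus strand: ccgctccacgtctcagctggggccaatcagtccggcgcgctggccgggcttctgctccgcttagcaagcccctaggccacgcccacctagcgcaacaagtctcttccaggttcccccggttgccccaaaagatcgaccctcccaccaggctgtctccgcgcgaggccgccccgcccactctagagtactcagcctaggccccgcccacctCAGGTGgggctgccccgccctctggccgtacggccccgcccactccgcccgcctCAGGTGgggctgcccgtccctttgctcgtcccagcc
CACCTG occurred in 7 of the 8 windows, at least 1 for each of the 7 genes and 1 of the 2 for Cldn7, while 20.2% of all 32851 promoter windows held it. In Grhl3 it lay at -19 and 8 bases from the start, in Cldn4 at -14 and 11, and in Baiap2l1 at -40 and 14. The G and C content of the 8 windows was 52.0% to 71.0%, against a median of 52.7% for all windows. The grainyhead sequence AACCGGTT, found in 0.146% of all windows, and its looser form AACCNGTT, found in 2.09%, were each searched on both strands and were in none of the 8. The looser form contains the stricter one, and a missing match says only that these letters are not in the window. On chromosome 5, Cldn3 and Cldn4 are neighbouring genes, as are Cdh1 and Cdh3 on chromosome 8 and Cldn6 and Cldn9 on chromosome 17.

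Of the 11 probes, 9 probes of 8 genes were detected on at least 2 of the 6 arrays and entered the comparisons. The Epcam probe, for a homophilic adhesion molecule of epithelia and stem cells, was detected on no array, with deposited intensities of 68.3 to 83.4 where array medians were 87.3 to 96. A second Cdh1 probe was likewise detected on none, at 81.4 to 97.5. Neither gives a level or a difference, and the Epcam probe says nothing about how much Epcam the cells hold.

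Grhl2 stood apart in O2ACH iPS. Its deposited intensities were 415 and 371 in O2ACH iPS, 146 and 136 in CL25, and 170.05 and 93.8 in ES cells, where the second array did not detect it. After background correction and quantile normalisation the log2 values were 8.63 and 8.22 in O2ACH iPS, 6.14 and 6.09 in CL25, and 6.71 and 4.78 in ES cells. Both O2ACH iPS arrays lay above the other 4, while the ES arrays lay on either side of the CL25 pair. The mean was 4.96-fold lower in CL25 than in O2ACH iPS, a log2 difference of -2.31 ± 0.53 (SE of the limma fit, n = 2 arrays a line, as for every ± below). It was 6.41-fold higher in O2ACH iPS than in ES cells, by 2.68 ± 0.53. This second value rested on the ES arrays: it was 1.71 without ES array 2 and 3.65 without ES array 1. Grhl2 in CL25 and ES cells differed by 0.37 ± 0.53, less than the spread of the ES pair, and by -0.60 or 1.34 when either ES array was left out. In bulk RNA, fewer cells that express a gene and less RNA per cell cannot be told apart.

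Grhl3, the paralogue that acts in epidermal barrier formation and neural tube closure, followed another order. Its brighter probe had log2 values of 7.27 and 7.62 in CL25, 7.07 and 7.21 in ES cells, and 6.63 and 7.14 in O2ACH iPS. The CL25 arrays lay above the other 4, by 0.56 ± 0.24 over O2ACH iPS and 0.31 ± 0.24 over ES cells, and the ES and O2ACH iPS arrays overlapped. The dimmer probe gave 0.51 ± 0.21 and 0.48 ± 0.21 for the same differences. O2ACH iPS, highest for Grhl2, had the lowest mean for Grhl3.

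**Figure D1:**
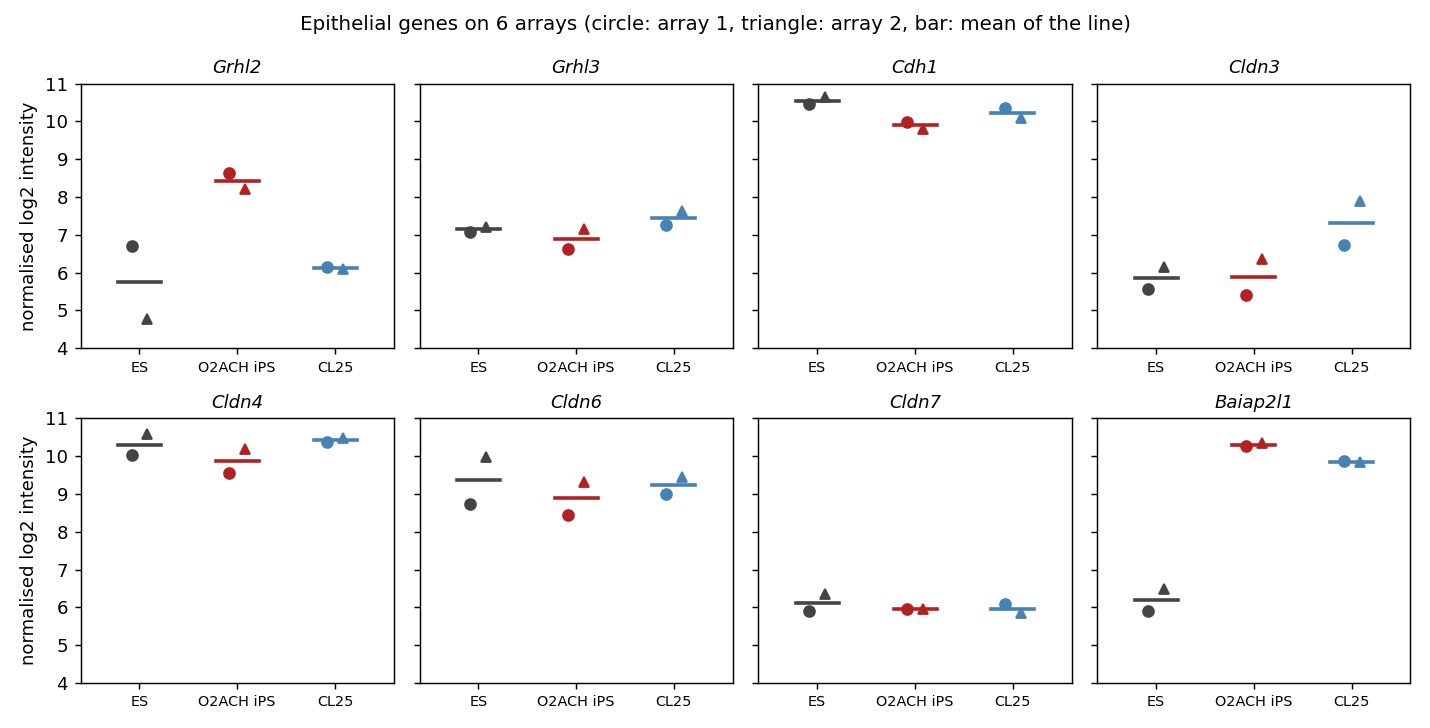
Normalised log2 intensity (y axis) of the 8 measured epithelial genes on each array, by line (x axis); circles are array 1, triangles array 2 and bars the mean of the line. Grhl2 is high on both O2ACH iPS arrays, Baiap2l1 is high on all 4 iPS and CL25 arrays and Cldn3 is highest on both CL25 arrays; levels of different genes come from different probes and are not compared.

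Cdh1, which encodes E-cadherin, was bright on all 6 arrays. The deposited intensities were 1452 and 1769 in ES cells, 1447 and 1180.05 in CL25, and 971 on each of the O2ACH iPS arrays. On the normalised scale these were 10.45 and 10.65, 10.36 and 10.09, and 9.99 and 9.80, so that the 3 lines did not overlap and O2ACH iPS was lowest. The difference was -0.65 ± 0.20 for O2ACH iPS against ES cells, 1.57-fold, and it was 0.33 ± 0.20 for CL25 against O2ACH iPS.

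Among the claudins, Cldn3 showed the widest gap between lines. Its intensities were 183 and 310.1 in CL25, 106 and 154 in O2ACH iPS, and 113 and 146 in ES cells, all near the lower end of the detected range. The normalised log2 values of 6.72 and 7.90 in CL25 lay above 5.41 and 6.36 in O2ACH iPS and above 5.58 and 6.15 in ES cells. The CL25 mean was higher by 1.43 ± 0.45 than in O2ACH iPS (2.69-fold) and by 1.45 ± 0.45 than in ES cells (2.73-fold). Leaving out CL25 array 2 gave 0.84 and 0.86, and leaving out CL25 array 1 gave 2.02 and 2.04. Without background correction the differences were 0.77 and 0.79.

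Cldn4, its neighbour, had log2 values of 10.39 and 10.49 in CL25, 10.02 and 10.58 in ES cells, and 9.57 and 10.18 in O2ACH iPS. The CL25 arrays lay above those of O2ACH iPS by 0.57 ± 0.27, and the ES pair overlapped both. For Cldn6, a claudin of early embryonic epithelia, the values were 9.002 and 9.45 in CL25, 8.74 and 9.98 in ES cells, and 8.45 and 9.32 in O2ACH iPS. All 3 lines overlapped, with line differences of 0.34 ± 0.44, -0.13 ± 0.44 and -0.47 ± 0.44 for CL25 against O2ACH iPS, CL25 against ES cells and O2ACH iPS against ES cells. Cldn7, a claudin of most simple epithelia, was dim and even, between 5.85 and 6.35 on the 6 arrays, and its 3 differences lay between -0.17 and 0.01.

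Array 2 of a line was brighter than array 1 in all 3 lines for 4 of the 8 genes, Grhl3, Cldn3, Cldn4 and Cldn6, as it was for 18.8% of all genes tested. The gap within a line reached 1.18 for Cldn3 in CL25 and 1.24 for Cldn6 in ES cells. Over all genes the median absolute gap within a line was 0.19 in CL25, 0.24 in O2ACH iPS and 0.25 in ES cells. What the number of an array stands for is not stated, and its part in the claudin values was not tested.

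Baiap2l1 separated both iPS lines from ES cells. This gene encodes IRTKS, a protein that bends membranes and links them to actin. Its deposited intensities were 1154 and 1389 in O2ACH iPS, 1041 and 1007 in CL25, and 125 and 166 in ES cells. On the normalised scale O2ACH iPS lay at 10.26 and 10.35, CL25 at 9.86 and 9.84, and ES cells at 5.90 and 6.49. The gap was 4.11 ± 0.23 for O2ACH iPS against ES cells, 17.3-fold, and 3.66 ± 0.23 for CL25 against ES cells, 12.7-fold. These comparisons share the ES arrays. Between the iPS lines the difference was small beside this, -0.45 ± 0.23, though their arrays did not overlap. Leaving out either ES array moved the O2ACH iPS value to 3.81 or 4.41.

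A probe that the table names Rbm35a, a synonym of Esrp1 in RefSeq and on chromosome 4 like that gene, was not chosen by name but is given here because Esrp1 governs epithelial splicing. Its intensities were 232 and 303 in ES cells, 141 and 197 in O2ACH iPS, and 131 and 144 in CL25. The normalised values of 7.37 and 7.76 in ES cells, 6.39 and 6.96 in O2ACH iPS, and 5.82 and 6.26 in CL25 did not overlap between lines. The CL25 mean lay 1.53 ± 0.27 below ES cells, 2.88-fold, and the O2ACH iPS mean 0.89 ± 0.27 below them, given as values without a test. This order, highest in ES cells and lowest in CL25, is that of Pou5f1 and of none of the 8 measured genes. How many of all genes have this order was not counted, and a link to Pou5f1 was not tested.

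**Figure D2:**
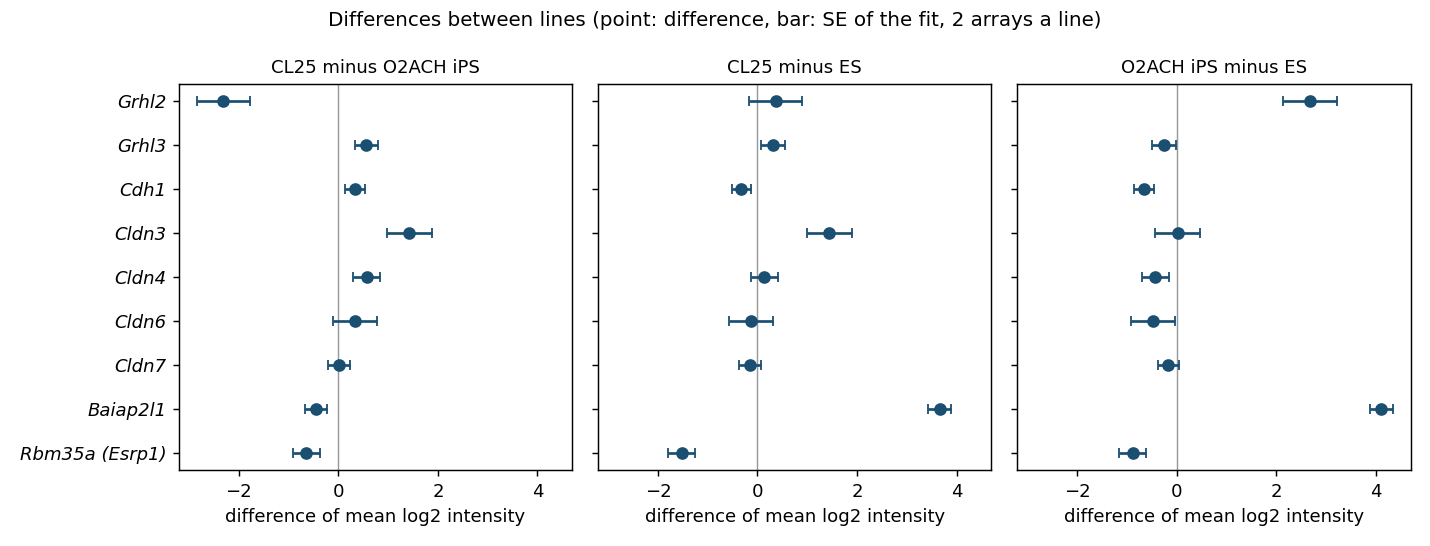
Difference of mean normalised log2 intensity (x axis) for each gene (y axis) in the 3 comparisons, with bars for the SE of the fit over 2 arrays a line. Grhl2 lies at -2.31 for CL25 minus O2ACH iPS and 2.68 for O2ACH iPS minus ES, and Baiap2l1 at 3.66 and 4.11 against ES.

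Set against all 12631 genes, the 8 measured genes were called as follows at a limma adjusted p under 0.05, counts from which nothing is read because the genes were chosen with these comparisons known. None was called in CL25 against O2ACH iPS, where 2.24% of all genes were (1.16% higher, 1.08% lower) and where 3 of the 8 had an unadjusted p under 0.05, as had 16.2% of all genes. In CL25 against ES cells 1 was called, higher, with 4.16% of all genes (2.26% higher, 1.91% lower). In O2ACH iPS against ES cells 1 was called, higher, with 0.808% of all genes (0.428% higher, 0.38% lower). The gene was Baiap2l1 each time. Unadjusted p-values under 0.05 numbered 2 and 3 of the 8 in these comparisons, against 19.5% and 14.1% of all genes. Arrays of the 2 lines did not overlap for 4 higher and 2 lower genes in CL25 against O2ACH iPS, against 23.4% and 25.4% of all genes. They did not overlap for 3 higher and 1 lower gene in CL25 against ES cells (23.5% and 27% of all genes) and for 2 higher and 1 lower in O2ACH iPS against ES cells (20.9% and 21.3%). The median difference of the 8 was 0.33, 0.22 and -0.21 in these comparisons, and that of all genes -0.02, -0.02 and 0.00.

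Over the 6 arrays, which share 3 lines, Grhl2 correlated at r = -0.83 with Cdh1, -0.85 with Cldn4 and -0.64 with Grhl3, and at 0.57 with Baiap2l1. The claudins Cldn4 and Cldn6 correlated at 0.87, and Cldn3 and Grhl3 at 0.91. Genes most like Grhl2 were sought among 1074 genes, other than those followed, whose line means spanned at least 1 on the log2 scale. The 5 closest were Tlr2, a receptor for bacterial lipoproteins (r = 0.996), Foxp3, a transcription factor of regulatory T cells (0.993), Pgap6 (0.992), Egfr, the epidermal growth factor receptor (0.991), and the homeobox gene Pknox2 (0.99). Each was high in O2ACH iPS and had a lower value on ES array 2 than on ES array 1, as Grhl2 did: Tlr2 had 7.59 and 7.45 in O2ACH iPS, 6.11 and 5.89 in CL25, and 6.50 and 5.14 in ES cells. The 5 closest to Baiap2l1 were Thumpd1, Mrps27, Aqr, Was and Slc4a3 (r from 0.98 to 0.99), of which Thumpd1 and Aqr were detected on no ES array. These are descriptions over 6 arrays and say nothing of a shared control.

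Other genes of the epithelial programme were then compared, from lists that hold none of the 10 genes. Of 30 genes of adherens junctions, tight junctions, desmosomes and polarity complexes, 21 were detected well enough to be tested. In CL25 against O2ACH iPS 1 of the 21 rose and none fell. It was Cdh3, P-cadherin, the classical cadherin encoded next to Cdh1. Its log2 values were 4.94 and 5.15 in O2ACH iPS, 6.73 and 7.47 in CL25, and 6.61 and 6.58 in ES cells, and 1 of the 2 O2ACH iPS arrays detected it. The O2ACH iPS arrays lay below all 4 others. Cdh3 was 2.06 ± 0.26 higher in CL25 than in O2ACH iPS (4.16-fold, limma adjusted p = 0.0152). Against ES cells the O2ACH iPS value was -1.55 ± 0.26 (limma adjusted p = 0.0556), which passed with median centring (0.0451) and with detection required on 1 array (0.0475). With O2ACH iPS near background, the difference between CL25 and O2ACH iPS was 0.94 without background correction and 1.36 with an offset of 50, both still past the threshold. The call in CL25 against O2ACH iPS was lost without O2ACH iPS array 1 (change of 1.96, limma adjusted p = 0.0966), without CL25 array 2 (1.69, 0.0772) and without the detection filter (2.06, 0.0745).

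Dsp, the desmosomal plaque protein desmoplakin, and Ocln, occludin, were not well above background on either O2ACH iPS array and did not pass. Dsp was at least 1.64-fold higher in CL25 (limma adjusted p = 0.132) and at least 1.67-fold higher in ES cells (0.179) than in O2ACH iPS. Such a bound sets the brighter line's mean against, on each array, the larger of the probe's own signal and the lowest detected signal. It makes no allowance for the spread between arrays. Leaving out 1 array gave Dsp log2 differences of 0.58 to 1.245 in CL25 against O2ACH iPS. Ocln was at least 1.496-fold higher in CL25 (limma adjusted p = 0.288). F11r, which encodes the junctional molecule JAM-A, gave 0.68 ± 0.30 and Nectin3, a nectin of adherens junctions, -0.47 ± 0.20 in CL25 against O2ACH iPS, neither past the threshold. In O2ACH iPS against ES cells none of the 21 passed limma's test, with 4 at an unadjusted p under 0.05 (14.1% of all genes). In that comparison 15 of the 21 differences were negative, as were 6359 of those of all 12631 genes. The median of the list was -0.45 against 0.00 for all genes. This is a description, as the list was chosen with earlier results known and its genes are not independent. In CL25 against ES cells none of the 21 passed either, with 3 at an unadjusted p under 0.05 (19.5% of all genes). The median of the list was -0.07 in that comparison.

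**Figure D3:**
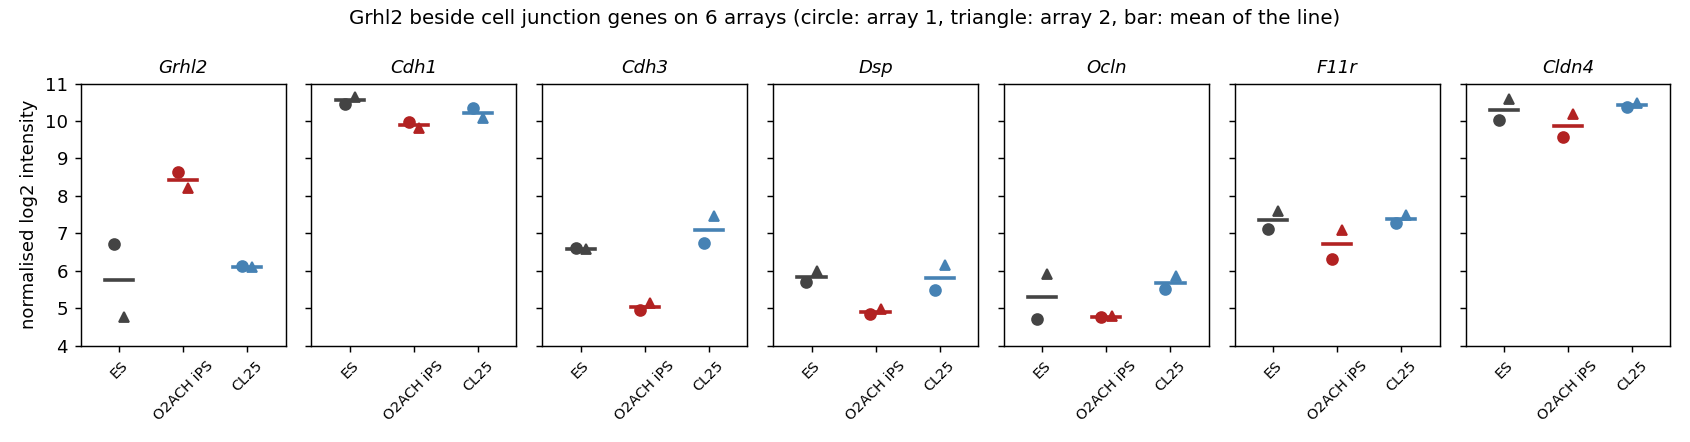
Normalised log2 intensity (y axis) of Grhl2 and 6 cell junction genes on each array, by line (x axis), with circles for array 1, triangles for array 2 and bars for the mean. O2ACH iPS has the highest mean for Grhl2 and the lowest for Cdh1, Cdh3, Dsp, Ocln, F11r and Cldn4, with Dsp and Ocln not detected there; of these genes Cdh3 alone passed a test, in CL25 against O2ACH iPS.

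A second list of 30 epithelial genes, with keratins, proteases, splicing and trafficking genes known to follow epithelial state, had 19 tested members. None passed limma's test in any comparison, with 7 at an unadjusted p under 0.05 in CL25 against O2ACH iPS and 5 in each of the others. Such a p was held by 16.2% of all genes in CL25 against O2ACH iPS. The shares were 19.5% in CL25 against ES cells and 14.1% in O2ACH iPS against ES cells. Esrp2, the paralogue of Esrp1, had 6.97 and 6.71 in CL25, 6.30 and 5.93 in O2ACH iPS, and 6.002 and 5.345 in ES cells. Its CL25 arrays lay above the other 4, and the difference from ES cells was 1.17 ± 0.27 (limma adjusted p = 0.0587), opposite in sign to that of Rbm35a. Esrp2 passed in that comparison with median centring (limma adjusted p = 0.0499). With its probes averaged the difference was smaller, 0.81 (limma adjusted p = 0.0705). Leaving out 1 array gave differences of 0.84 to 1.496. Rab25, a vesicle transport GTPase of epithelia, had both O2ACH iPS arrays above the rest, as Grhl2 did: 7.01 and 6.97, against 6.29 and 6.40 in CL25 and 6.43 and 6.13 in ES cells. Its difference in CL25 against O2ACH iPS was -0.65 ± 0.19 (limma adjusted p = 0.143). The membrane protease gene St14, matriptase, gave 0.97 ± 0.31 and Krt18, a keratin of simple epithelia, 0.97 ± 0.36 in the same comparison, neither past the threshold.

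The remaining members of the grainyhead family, Grhl1, Tfcp2, Tfcp2l1 and Ubp1, gave no call in any of the 3 comparisons by limma and none at an unadjusted p under 0.05. Grhl1 had line means of 5.87 in O2ACH iPS, 6.14 in CL25 and 6.25 in ES cells, with a difference of 0.27 ± 0.17 in CL25 against O2ACH iPS. Of 18 other claudin genes 5 were tested and none was called. In each comparison of CL25, 1 had an unadjusted limma p under 0.05, as had 16.2% and 19.5% of all genes. That gene was Cldn10, detected on both CL25 arrays and on no other. It was at least 1.13-fold higher there than in O2ACH iPS (limma adjusted p = 0.099) and at least 1.17-fold higher than in ES cells (0.0871). Cldn10 passed the filter only through the line where it was high, so nothing is read from these p-values. Without the detection filter its value was 0.17 in CL25 against O2ACH iPS and -0.09 in CL25 against ES cells. Cldn9, next to Cldn6, lay between 6.49 and 6.82 on the 6 arrays.

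Genes that act with Esrp1 or are spliced by it formed another list, 8 of 9 tested. In CL25 against ES cells 1 rose and 1 fell. Rbm47, an RNA-binding protein of endoderm and epithelia, had 10.44 and 10.25 in CL25, 9.34 and 9.20 in O2ACH iPS, and 8.76 and 8.01 in ES cells, with no overlap between lines. It rose by 1.96 ± 0.26 in CL25 against ES cells (3.90-fold, limma adjusted p = 0.0116), and another probe gave 1.84. Its remaining 2 probes were detected on no ES array, which leaves lower bounds of 2.26-fold and 1.25-fold for CL25 over ES cells. Mbnl1, a muscleblind splicing factor, fell by 1.16 ± 0.21 (limma adjusted p = 0.0291), from 7.25 and 7.29 in ES cells to 6.23 and 5.99 in CL25, while its other detected probe gave 0.03. Mbnl1 lost the call without any of the 4 arrays compared (limma adjusted p from 0.0618 to 0.212), with its probes averaged (a change of -0.57, 0.128) and with all probes kept regardless of detection (0.0706). Rbm47 lost it without CL25 array 1 (0.0752) or 2 (0.0712) and without the filter (0.0559). In CL25 against O2ACH iPS no member was called and 3 had an unadjusted limma p under 0.05, as had 16.2% of all genes. The 3 were Rbm47 at 1.07 ± 0.26, Mbnl1 at -0.81 ± 0.21 and the quaking gene Qk at -1.08 ± 0.25. With the 4 arrays of those lines alone, Rbm47 and Qk passed (limma adjusted p = 0.0358 and 0.0305). Of 7 genes of the Baiap2 family and its actin partners, 4 were tested and none was called by limma. At an unadjusted p under 0.05 were 2 in CL25 against O2ACH iPS (16.2% of all genes) and 1 in CL25 against ES cells (19.5%). Mtss1, Eps8, Enah and Wasl had negative differences in both comparisons of CL25, Mtss1 giving -0.59 ± 0.22 and Eps8 -0.61 ± 0.22 against O2ACH iPS. Enah and Wasl changed sign under some alternatives. Enah gave 0.17 and 0.19 with its probes averaged, and up to 0.295 against ES cells with 1 array left out. Wasl gave -0.05 ± 0.17 against O2ACH iPS, at most 0.01 with 1 array left out and at most 0.06 under the other alternatives.

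Over all 96 of these listed genes 59 were tested. They held 1 rise and no fall in CL25 against O2ACH iPS, where 1.16% of all genes rose and 1.08% fell. In CL25 against ES cells there was 1 rise and 1 fall, against 2.26% and 1.91%. In O2ACH iPS against ES cells there was no call, against 0.428% and 0.38%. Of the 59, 16 had an unadjusted limma p under 0.05 in CL25 against O2ACH iPS (16.2% of all genes). The counts were 12 in CL25 against ES cells (19.5%) and 11 in O2ACH iPS against ES cells (14.1%). The median differences of the listed genes were 0.08, -0.08 and -0.16.

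**Figure D4:**
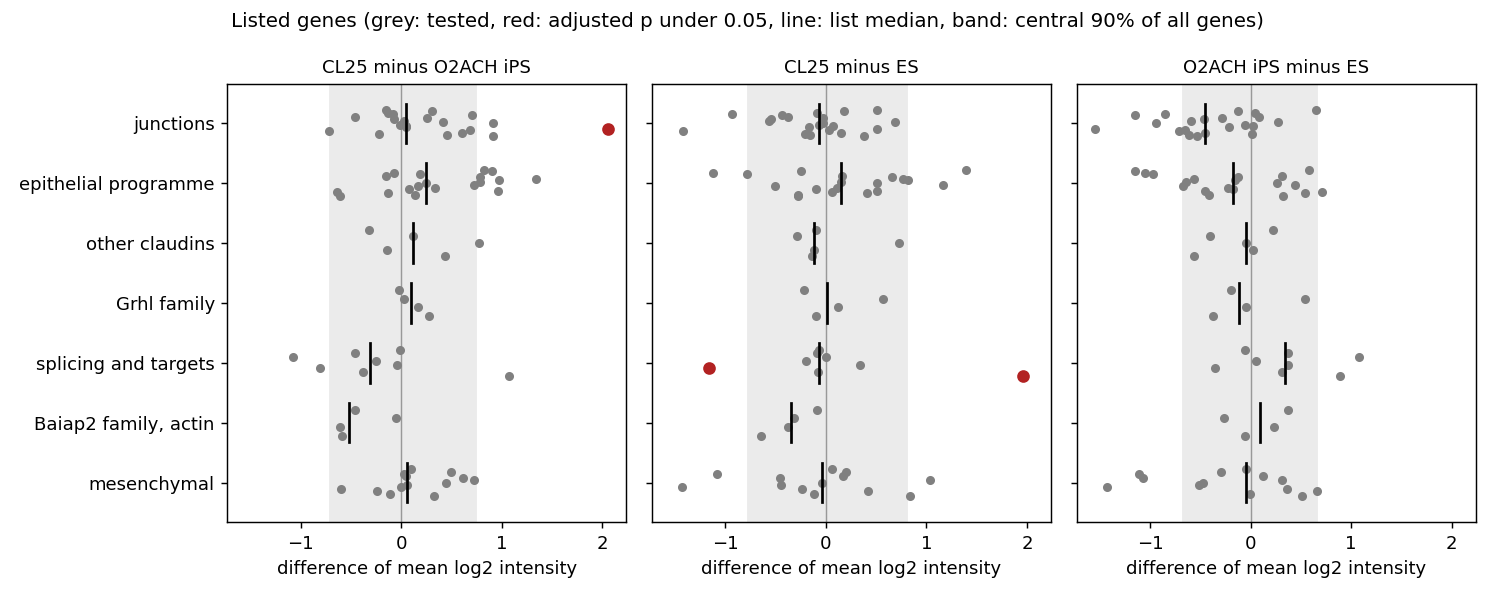
Difference of mean normalised log2 intensity (x axis) of every tested gene of 7 lists (y axis) in the 3 comparisons; red points passed an adjusted p under 0.05, black lines are list medians and the grey band holds the central 90% of all genes. The red points are Cdh3 in CL25 minus O2ACH iPS, and Mbnl1 and Rbm47 in CL25 minus ES; the junction list has a median of -0.45 in O2ACH iPS minus ES.

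Of 20 mesenchymal genes 13 were tested, and limma called none in any comparison. An unadjusted limma p under 0.05 was found for 2 in CL25 against O2ACH iPS, where 16.2% of all genes had one. In CL25 against ES cells there were 4 (19.5% of all genes), and in O2ACH iPS against ES cells 3 (14.1%). Snai1, the Snail repressor that binds CACCTG, had 6.28 and 5.80 in O2ACH iPS, 5.56 and 5.33 in CL25, and 5.23 and 6.13 in ES cells, and the ES pair spanned the CL25 pair. Zeb1, named for the same motif and after its values were seen, had line means of 8.68 in O2ACH iPS, 8.44 in CL25 and 8.02 in ES cells, a difference of -0.24 ± 0.28 in CL25 against O2ACH iPS (limma adjusted p = 0.748). Snai3, also named after its values were seen, had 7.26 and 8.44 in ES cells, above the other 4 arrays. It had 6.42 and 6.41 in O2ACH iPS and 6.88 and 5.955 in CL25. Both lines lay at -1.43 ± 0.43 against ES cells (limma adjusted p = 0.213 for O2ACH iPS and 0.121 for CL25). Sparc, a matrix glycoprotein that endoderm also makes, gave 1.03 ± 0.23 in CL25 against ES cells (limma adjusted p = 0.0542). It passed with its probes averaged (0.0217), without background correction (0.0407), with an offset of 50 (0.0381) and with the 4 arrays of these lines alone (0.0464), so that the count of mesenchymal genes was 1 there.

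Some markers of other epithelial cell types were higher in CL25. Of 8 extraembryonic endoderm markers 3 to 4 were detected on the CL25 arrays, 3 on those of O2ACH iPS and 4 on those of ES cells, with summed normalised intensities of 521 to 758, 258 to 302 and 250 to 319. Gata6 and Dab2 of this list rose in CL25 by 2.00 ± 0.33 and 2.48 ± 0.29 against O2ACH iPS (limma adjusted p = 0.0324 and 0.012), while Sox7 and Amn gave -0.23 and -0.09. Gata6 lost this call without the detection filter (limma adjusted p = 0.124), without background correction (1.24, 0.0504) and without any of the 4 arrays compared (0.0574 to 0.176), and Dab2 without the filter (0.0691) and without CL25 array 1 (0.0602). The probes of Dab2 disagreed. Another Dab2 probe, detected on all arrays of these lines, gave 0.10 in CL25 against O2ACH iPS. A further Dab2 probe, detected on no O2ACH iPS array, was at least 6.66-fold higher in CL25. Gata4, Sox17, Foxa2 and Cubn of the same list were detected on no array. Of 8 trophectoderm markers 4 to 6 were detected on the CL25 arrays, 4 on those of O2ACH iPS and 3 on those of ES cells, with sums of 3978 to 4936, 1887 to 2603 and 1711 to 2470. Tfap2c, a transcription factor that germ cells also use, made up 75.3% to 90.7% of these sums, and its difference of 1.17 ± 0.30 in CL25 against O2ACH iPS did not pass (limma adjusted p = 0.105). Without Tfap2c the sums were 405 to 468 in CL25, 394 to 465 in O2ACH iPS and 229 to 258 in ES cells. Gata3 and Cdx2 lay lower in CL25 than in O2ACH iPS, by -0.73 ± 0.31 and -0.47 ± 0.36, neither past the threshold. Against ES cells, where no array detected it, Gata3 was at least 2.87-fold higher in O2ACH iPS (limma adjusted p = 0.0402), a call lost under most alternatives (0.0536 to 0.2 where lost). Tfap2a rose by 1.40 ± 0.20 in CL25 against ES cells (limma adjusted p = 0.0144), a call lost without CL25 array 2 (0.115). Elf5 and Hand1 were detected on none. Of 8 feeder fibroblast markers 1 to 2 were detected in CL25, 3 in O2ACH iPS and 3 to 4 in ES cells, with sums of 226 to 279, 312 to 441 and 320 to 1139, and Col1a1, Col3a1, Postn and Lum were detected on no array. Acta2 of this list had 6.915 and 9.83 in ES cells and 7.88 and 6.56 in O2ACH iPS. No CL25 array detected it. Acta2 was at least 9.87-fold lower in CL25 than in ES cells (limma adjusted p = 0.0554), and passed with median centring (0.0459). With its probes averaged the difference was -1.61 (limma adjusted p = 0.168). Col1a2 and Twist1 gave -0.17 and -0.45 in that comparison, and Thy1 gave 0.91. The part of these cell types in the values of Cldn3, Cdh3 and Rbm47 was not tested.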

How the data were processed

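Total RNA was extracted on RNeasy columns and amplified with the TotalPrep-96 kit, per the labels' protocols. Per the file headers, the deposited table holds, for each probe and array, the mean intensity over its beads with a p-value of detection. These intensity values differ in median between arrays, so they were not normalised, and the lowest lie well above 0. The scanner software and array model were not given in the sources used here. A second deposited table of processed values was not used, since its probe names match none of the first.

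Gene names were brought to current symbols with a RefSeq table of GRCm38.p6 (27760 probes by symbol, 7994 by synonym, 9527 unmatched). The software was limma 3.58.1 under R 4.3.3. Its nec function used the detection p-values to correct background (offset 16), followed by log2 and quantile normalisation. Kept were 18175 probes detected at p under 0.05 on 2 or more arrays, and a gene's brightest kept probe stood for it (12631 genes). The offset shrinks differences of dim genes. A single fit by lmFit and eBayes covered the 6 arrays and estimated 3 line means (residual df 3, prior df 4.27), with Benjamini-Hochberg adjustment over all genes, and tested on simulated data.

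The epithelial genes and all gene lists were chosen with earlier results of these data known. Named are all probes of those genes and, per list, up to 8 called genes and up to 4 more with the smallest p in CL25 against O2ACH iPS. The genes most like Grhl2 and Baiap2l1 leave out clone and predicted names. Listed genes without a kept probe were not analysed here. Alternatives varied the filter, background, scaling, probe rule, samples and block.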

Additional observations from a re-analysis of the deposited data

How the results depend on the processing

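Call counts depended on the filter and on single arrays. Genes called numbered 283 in CL25 against O2ACH iPS, 526 in CL25 against ES cells and 102 in O2ACH iPS against ES cells, and listed epithelial genes 1, 2 and 0. Without the detection filter these were 58, 191 and 24, and 0, 0 and 0. With the replicate number as a block they were 649, 911 and 272, and 3, 5 and 1. Under the block Esrp2 passed in CL25 against ES cells (limma adjusted p = 0.0145), Dsp in CL25 against O2ACH iPS (0.0474) and Cdh3 in O2ACH iPS against ES cells (0.0289). The labels do not say what the numbers share, and deviations of same-numbered arrays correlated at 0.298, 0.323 and 0.183 between lines. With only the 4 arrays compared, 44 genes were called in O2ACH iPS against ES cells and 3 listed genes in CL25 against O2ACH iPS. Listed genes numbered 1 in CL25 against ES cells with the mean of probes, and 1 in O2ACH iPS against ES cells with median centring or with detection on at least 1 array. Leaving out 1 array gave 35 to 392, 74 to 569 and 14 to 222 genes, and 0 to 3, 0 to 4 and 0 to 1 listed genes; fewer samples entered these fits, and a lone array is assumed to vary like those of other lines. The causes of the other shifts were not tested.

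No called gene named from the lists changed sign under any alternative run in the comparison where it was called. Without background correction Grhl2 gave -1.48 in CL25 against O2ACH iPS and 1.58 in O2ACH iPS against ES cells, and Baiap2l1 2.67 and 3.09 against ES cells. The alternative with the second deposited table was not run, since its rows could not be named. Mesenchymal genes called numbered 0 to 2 over all alternatives. Signals near background limit Grhl2 in ES cells, Cdh3 in O2ACH iPS, Cldn3, Cldn7, Cldn10, Dsp, Ocln, Krt18 and Krt19.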

Other observations

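O2ACH iPS had the lowest mean of the 3 lines for 5 of the 8 epithelial genes, 11 of the 21 junction genes (52.4%) and 11 of the 19 genes of the second epithelial list (57.9%), against 30.2% of all genes. It was also lowest for 7 of the 13 mesenchymal genes (53.8%), but for 0 of the 8 genes that act with Esrp1 and 0 of the 4 of the Baiap2 family, and for 27 of all 59 listed epithelial genes (45.8%). This count was chosen after the values were seen, and neighbouring means often lie within the spread of the arrays.

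The keratins of simple epithelia, named after their values were seen, had their lowest line mean in O2ACH iPS. Krt8 had 6.81 and 7.997 there, 8.21 and 8.17 in CL25, and 7.99 and 8.10 in ES cells. Krt18 had 4.98 and 6.13, 6.33 and 6.73, and 5.74 and 5.68 in the same order, and Krt19 4.69 and 4.67, 6.38 and 5.65, and 4.42 and 6.07. Krt18 was detected on 1 O2ACH iPS array, and Krt19 on no O2ACH iPS array and 1 ES array. These means thus lie near background, and ES array 1 was below both O2ACH iPS arrays for Krt19. For Krt8 and Krt18 the O2ACH iPS pair differed by more than the line means did, array 1 being the dim one. None of the 3 passed limma's test in CL25 against O2ACH iPS (adjusted p = 0.34, 0.243 and 0.251).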
